A study of Mus musculus with 28 samples.

Results

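Subchondral bone is the plate of bone under the cartilage of a joint. It was studied here 6 weeks after surgical destabilization of the medial meniscus (DMM), which leads to osteoarthritis in mice, or after a sham operation. The arrays were those with subchondral bone in the source field and a DMM or sham operation at 6 weeks in the title, and 8 of the 28 arrays of the series met this, 4 from DMM mice and 4 from sham mice. All 8 came from single male wild type C57BL6 mice that were 10 to 12 weeks old at surgery. In DMM mice the ligament that anchors the medial meniscus to the tibia was cut in both knees. In sham mice it was exposed on both sides and left whole, so every control carried an opened and flushed joint. Bone was taken by laser microdissection from sections of the decalcified medial tibial plateau, 1 joint of each mouse was used for the arrays, and small RNA was measured with Agilent mouse miRNA probes. A value is the deposited log2 signal of a miRNA, and a difference is the mean of DMM minus the mean of sham on that log2 scale. The limma test used 490 miRNAs with a value on all 16 bone arrays of both time points.

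miRNAs are short RNAs that pair with messenger RNAs, mainly through the seed at bases 2 to 8, and reduce translation or stability of the target. Subchondral bone holds bone-forming osteoblasts and osteocytes, bone-resorbing osteoclasts, vessels, and marrow with blood cells. In osteoarthritis it is remodelled, with thickening of the bone plate and changes in its marrow spaces. miR-29 and miR-218 are known in osteoblast development, miR-223 in myeloid cells and osteoclast precursors, miR-155 and miR-146a in inflammation, miR-451a in red blood cells, and miR-140 in cartilage.

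The mature sequences below are those of miRNAs on which the results turn, from RefSeq (GRCm38.p6), with the seed in capitals. They are shown to place each value with its molecule. The first 6 are described below for their differences between operations. The next 3 had very different signals between mice of 1 group. The last 5 are miRNAs of blood cells and of the let-7 family.
miR-6984-3p: uACUUUCUuuccugucuuucu
miR-6368: cUGGGAAGcaguggaggggag
miR-6929-3p: cAGGUGCUgucuucuucuuccag
miR-155-5p: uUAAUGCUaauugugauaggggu
miR-106a-3p: aCUGCAGUgccagcacuucuuac
miR-101c: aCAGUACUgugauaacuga
miR-5622-3p: cUUAGCUGgguagugguggugc
miR-494-3p: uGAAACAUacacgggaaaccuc
miR-7005-5p: cCUGGGGAugggaggaccagca
miR-451a: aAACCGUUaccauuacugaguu
miR-223-3p: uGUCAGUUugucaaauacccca
let-7a-5p: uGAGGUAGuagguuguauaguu
let-7b-5p: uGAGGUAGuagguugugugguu
let-7c-5p: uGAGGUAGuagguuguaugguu
miR-6929-3p lies on the minus strand at chr11:101419187-101419209, within the span of Ptges3l. miR-6984-3p lies on the plus strand at chr19:3288961-3288981, within the span of Mrpl21. miR-6368 lies on the minus strand at chr13:28710796-28710816, within the span of 2610307P16Rik. miR-5622-3p lies on the plus strand at chr2:152865105-152865126, within the span of Tpx2. The 3 let-7 members share 1 seed, and the other 11 sequences each have a seed of their own in this set.

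The tissue label was read against cell markers. miR-223-3p had a mean signal of 12.50 ± 0.51 (SD, n = 4) in DMM and 12.54 ± 0.18 (SD, n = 4) in sham, and miR-451a had 13.00 ± 0.38 and 13.11 ± 0.26, so miRNAs of myeloid and red blood cells were measured in every library. Of the 7 muscle miRNAs listed, 1 had a value on all bone arrays, miR-206-3p, with 6.20 to 7.14 in DMM and 6.28 to 7.30 in sham. Its highest values were in DMM mice 21 and 25 and sham mouse 22. It holds the UGUGUG repeat described below, and its correlation with the first component described below was 0.90. Whether its range reflects muscle content was not tested. Of the 7 epithelial miRNAs listed, 1 had a value on all bone arrays, miR-200c-3p, with 5.29 as its mean over the 8 arrays. Of the 4 cartilage miRNAs listed, 3 had a value, and the log2 of their summed signal was 9.64 to 9.85 in DMM and 9.65 to 9.94 in sham. In a dissected tissue, fewer cells of a type and less of a miRNA per cell cannot be told apart.

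No miRNA in subchondral bone passed an adjusted p of 0.05 between DMM and sham at 6 weeks. limma called 0 of 490 (0%), and the smallest adjusted p was 0.998. At an unadjusted p under 0.05, 2 of 490 miRNAs passed (0.408%), miR-1971 and miR-106a-3p. Differences ran from −0.74 to 1.02 with a median of −0.0019, with 244 positive and 246 negative. For 441 miRNAs (90%) the difference was under 0.25 in size, and for 7 it was 0.5 or more. The 95% interval lay within a 2-fold change in either direction for 448 miRNAs (91.4%), and within 1.5-fold for 234 (47.8%). For the other 42 miRNAs the interval reached past a 2-fold change, so a change of that size was not excluded by the data.

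Every DMM value lay above every sham value for 1 miRNA (0.204%), miR-6368, and below for 1 (0.204%), miR-101c. Arrays did not group by operation. Across the 490 miRNAs, the median Pearson correlation was 0.941 over the 12 pairs of mice of the same group and 0.954 over the 16 pairs of a DMM with a sham mouse. The median within-group SD was 0.314 at 6 weeks and 0.302 at 1 week.

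**Figure D1:**
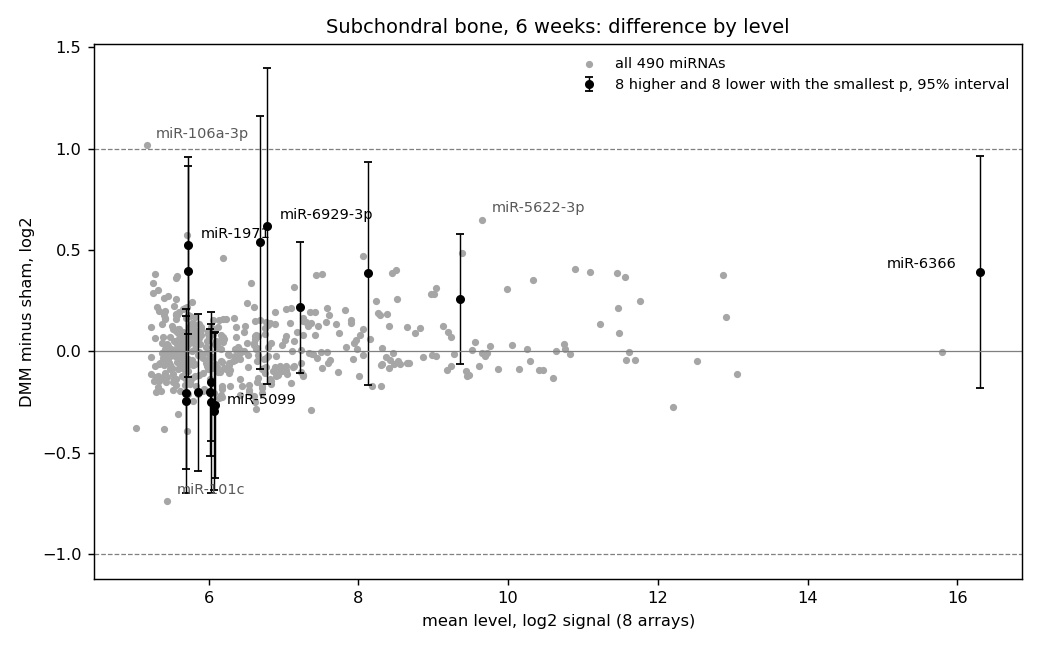
Difference between DMM and sham (vertical axis, log2) against the mean level (horizontal axis, log2 signal) for 490 miRNAs of subchondral bone at 6 weeks, with 95% intervals for the 8 higher and 8 lower miRNAs of smallest p. Points lie around 0 over the whole range of levels, 1 difference reaches 1, and dashed lines mark a 2-fold change.

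The miRNA with the smallest p was miR-1971. Its signals in DMM mice 5, 6, 21 and 25 were 6.52, 6.12, 5.74 and 5.56, and in sham mice 10, 12, 22 and 26 they were 5.26, 5.71, 5.39 and 5.48. The highest sham value, in mouse 12, lay above the lowest DMM value, in mouse 25, so the groups overlapped. The mean was 5.98 ± 0.43 (SD, n = 4) in DMM and 5.46 ± 0.19 (SD, n = 4) in sham, a difference of 0.52 ± 0.20 (SE) with a limma p of 0.0215 and an adjusted p of 0.998. Mouse numbers form a lower range, 5 to 12, and a higher range, 21 to 26, and the labels do not say what separates them. The difference in miR-1971 was 0.83 within the lower numbers and 0.21 within the higher ones.

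miR-6929-3p and miR-6984-3p had larger differences and wider spread. miR-6929-3p read 8.23, 7.14, 6.62 and 6.35 in the DMM mice and 6.20, 6.24, 6.85 and 6.58 in the sham mice. Its difference was 0.62 ± 0.37 (SE), with a 95% interval from −0.16 to 1.40. DMM mice 5 and 6 stood above all sham mice, while mice 21 and 25 lay among them, and the difference was 1.47 within the lower numbers and −0.23 within the higher ones. miR-6984-3p had the same order of DMM mice, with 7.84, 7.05, 6.58 and 6.38 against sham values of 6.33, 6.09, 6.73 and 6.55. Its difference was 0.54 ± 0.29 (SE), 1.24 within the lower numbers and −0.16 within the higher ones.

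miR-6368 was the miRNA with no overlap in that direction. It read 9.71, 9.62, 9.30 and 9.30 in DMM and 9.26, 9.11, 9.27 and 9.28 in sham. DMM mice 21 and 25 lay just above the top sham mouse, and mice 5 and 6 well above. The difference was 0.26 ± 0.15 (SE), with a limma p of 0.105 and an adjusted p of 0.998.

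The other 4 miRNAs with a higher mean in DMM and the smallest p were miR-7068-5p, miR-652-5p, miR-6366 and miR-1198-5p. Their differences were 0.40, 0.39, 0.39 and 0.22. miR-6366 was highest in signal of all 490, and sham mouse 12 read 15.1 while the other 7 mice read 16.3 to 16.6. Without that mouse its difference was 0.04, and it was −0.06 within the higher mouse numbers.

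The 8 miRNAs with a lower mean in DMM and the smallest p had differences of −0.29 to −0.15. miR-155-5p, which activated leukocytes express, read 5.93, 6.14, 5.71 and 5.84 in DMM and 6.61, 5.89, 5.88 and 6.24 in sham. Sham mouse 10 was highest and the groups overlapped. The difference was −0.25 ± 0.21 (SE) with a 95% interval from −0.70 to 0.20, and it was −0.21 within the lower mouse numbers and −0.28 within the higher.

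miR-5099 read 5.77, 5.62, 6.39 and 5.92 in DMM and 6.01, 6.62, 6.35 and 5.89 in sham, with no separation of the groups. The difference was −0.29 ± 0.18 (SE). The other 6 were miR-6971-5p, miR-1231-5p, miR-6975-5p, miR-7664-3p, miR-8102 and miR-7234-3p. Of these, miR-6975-5p and miR-7234-3p had differences of opposite sign in the lower and higher mouse numbers, −0.60 and 0.11, and −0.48 and 0.08.

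**Figure D2:**
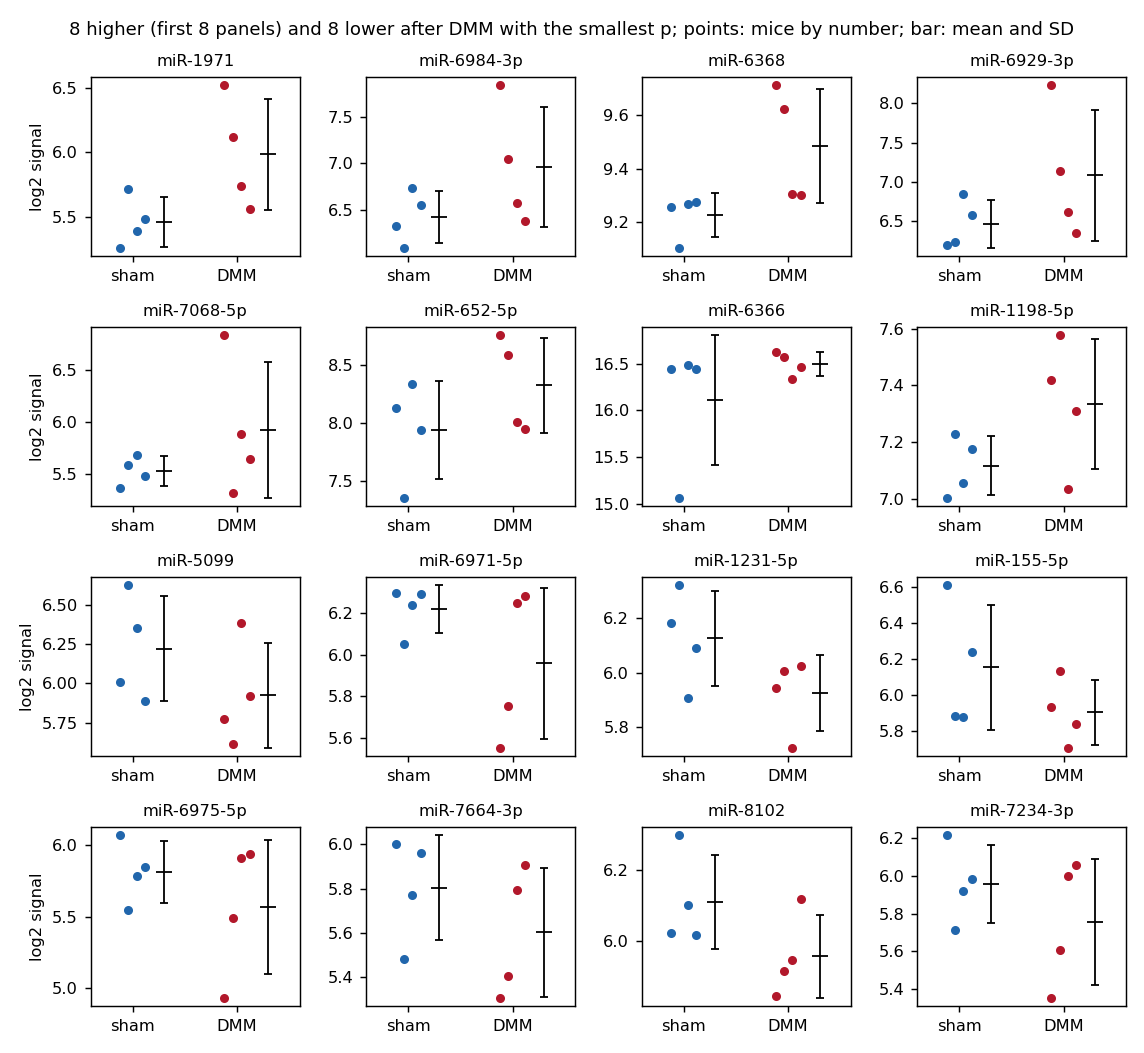
Log2 signal of 16 miRNAs in each mouse (points, ordered by mouse number) with the mean and SD of each group of 4, for the 8 higher and 8 lower miRNAs of smallest p. The groups overlap in 15 panels, and in several panels DMM mice 5 and 6 stand away from DMM mice 21 and 25.

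Below the 25th percentile of level (a mean of 5.68), 2 more miRNAs stood out, and both were picked after their values were seen. miR-106a-3p, made from the other strand of a hairpin of the miR-17 family, read 6.52, 6.93, 4.78 and 4.50 in DMM and 4.90, 4.82, 4.08 and 4.86 in sham. DMM mice 5 and 6 were high and mice 21 and 25 were not, and the difference was 1.02 ± 0.48 (SE), 1.86 within the lower numbers and 0.17 within the higher. miR-101c read 5.24, 5.06, 4.84 and 5.18 in DMM and 5.88, 5.28, 6.64 and 5.48 in sham. All 4 DMM values lay under the lowest sham value, and the difference was −0.74 ± 0.35 (SE) with a limma p of 0.0503.

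miRNAs of red blood cells did not separate the groups. miR-451a read 12.9, 13.3, 12.5 and 13.3 in DMM and 13.5, 12.9, 13.0 and 13.1 in sham, with a difference of −0.11 ± 0.44 (SE). The 5 erythroid miRNAs measured of 7 listed had a median difference of 0.02, against −0.0019 over all 490, and 0 were called. The widest erythroid interval, that of miR-144-3p, ran from −1.17 to 0.90.

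miRNAs of leukocytes had lower means in DMM in all 6 of 6 measured members, by little, as did 246 of all 490. Their differences ran from −0.12 to −0.02 with a median of −0.08, and 0 were called. With a score of the deviations between arrays as a covariate, described below, the median was −0.015, against 0.016 over all 490. miR-223-3p read 12.5, 13.1, 11.9 and 12.4 in DMM and 12.8, 12.5, 12.5 and 12.4 in sham. The DMM mice spanned the sham mice, and the difference was −0.05 ± 0.30 (SE). miR-142a-3p, a miRNA of all blood lineages, read 9.07, 10.0, 9.05 and 9.43 in DMM and 9.52, 10.1, 9.46 and 9.01 in sham, a difference of −0.12. miR-342-3p had a difference of −0.02 and miR-150-5p, of mature lymphocytes, −0.10.

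For miRNAs named in work on osteoblasts, 17 of 28 listed were measured and 0 were called. The median difference was −0.07, with 5 positive and 12 negative. miR-29a-3p, whose targets include collagen genes, read 10.2, 10.7, 10.4 and 10.5 in DMM and 10.7, 10.6, 10.5 and 10.2 in sham. Its difference was −0.09 ± 0.21 (SE), and those of miR-29b-3p and miR-29c-3p were −0.15 and −0.10. miR-218-5p, which acts in Wnt signalling of osteoblasts, had a difference of −0.10 with a 95% interval from −0.88 to 0.68. miR-3960 had a difference of 0.21 and the list's widest interval, from −0.86 to 1.29.

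For miRNAs named in work on osteoclasts, 11 of 15 listed were measured and 0 were called. Of these, 10 had a lower mean in DMM, with a median of −0.09 and a lowest difference of −0.25. The lowest were miR-155-5p at −0.25 and miR-146a-5p at −0.25, both also on the inflammation list. miR-21a-5p, on both lists too, had −0.09. miR-146a-5p, a brake on Toll-like receptor signalling, read 6.77, 6.74, 6.18 and 6.29 in DMM and 7.26, 6.63, 6.36 and 6.71 in sham, with overlapping groups. miR-214-3p had a difference of −0.0041, and miR-148a-3p of −0.03. With a score of the deviations between arrays as a covariate, the osteoclast median was −0.020, against 0.016 over all 490.

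The inflammation list had 7 measured of 10 listed, with a median difference of −0.09 and 0 called. miR-21a-5p, widely raised in injured tissue, read 10.5, 10.6, 10.1 and 10.2 in DMM and 10.5, 10.9, 10.4 and 9.98 in sham. The difference was −0.09 with a 95% interval from −0.74 to 0.56. miR-212-3p was the 1 member with a higher mean in DMM, by 0.12. miR-210-3p, induced by low oxygen, had a difference of −0.16 with an interval from −0.86 to 0.53.

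Mesenchymal and endothelial miRNAs gave means close to each other. The 7 mesenchymal members had a median difference of −0.01, with miR-199a-3p at 0.03 and miR-143-3p at −0.09. miR-126a-3p, of endothelial cells, read 9.53, 9.93, 9.52 and 9.63 in DMM and 9.83, 9.68, 9.73 and 9.39 in sham, a difference of −0.0051 ± 0.28 (SE). miR-140-3p, of cartilage, read 8.94, 8.96, 9.36 and 9.27 in DMM and 9.25, 9.18, 9.08 and 9.39 in sham, a difference of −0.09 ± 0.21 (SE).

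**Figure D3:**
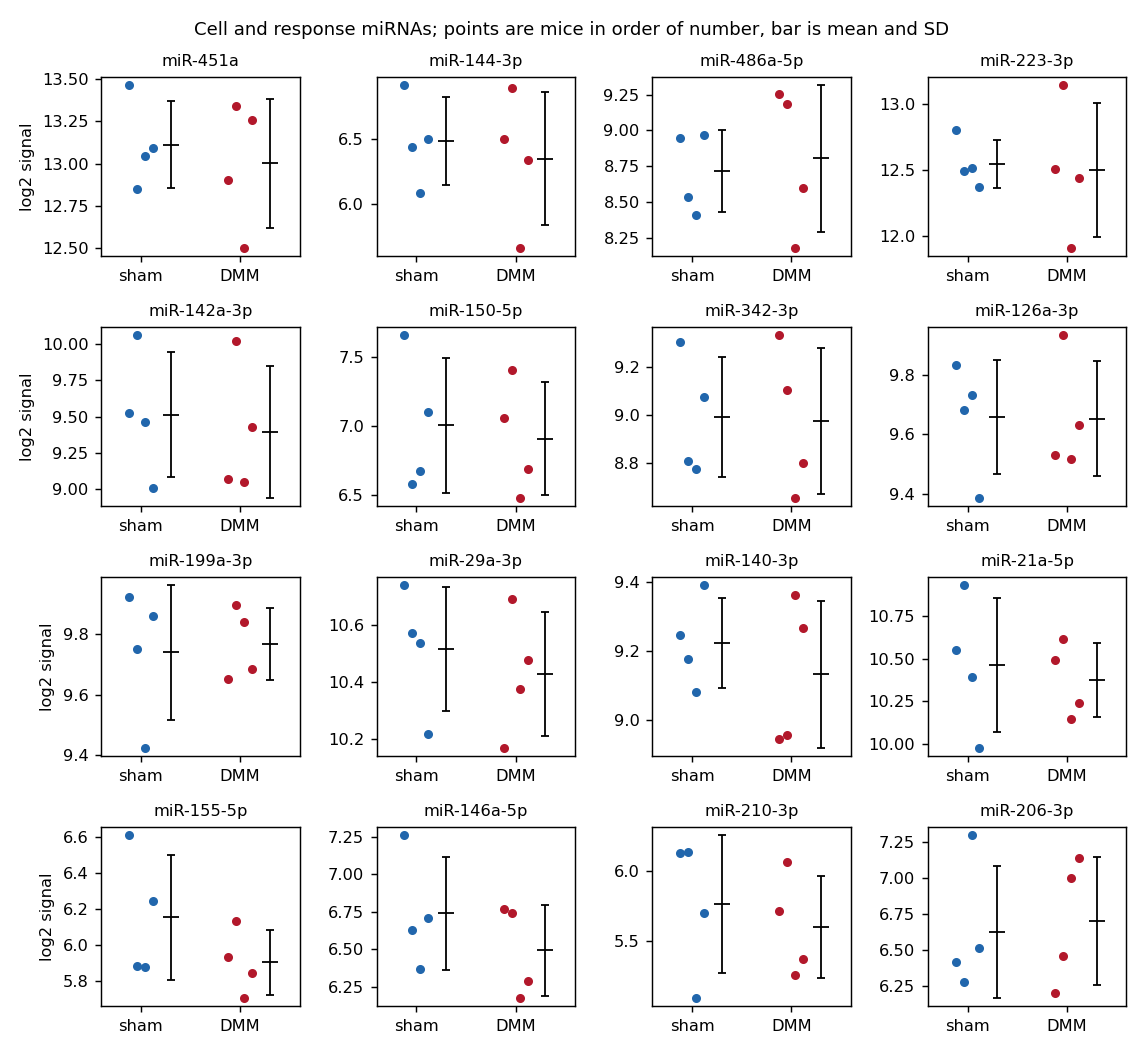
Log2 signal of 16 miRNAs of blood, vessel, mesenchymal, bone, cartilage, inflammation, low oxygen and muscle in each of the 8 mice (points, by mouse number), with the mean and SD of each group of 4. DMM and sham values overlap in all 16 panels.

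Families that share a seed or a transcript also gave small differences. The let-7 list had 9 measured of 9 listed and a median of −0.02, with differences from −0.08 to 0.03. let-7j and let-7k also had values but are not on that list. Their correlations with the first component described below were 0.75 and 0.90, against −0.46 for let-7a-5p and −0.92 for miR-98-5p. let-7a-5p read 11.4, 11.9, 11.5 and 11.6 in DMM and 11.8, 11.5, 11.5 and 11.6 in sham, a difference of −0.0024 with an interval from −0.40 to 0.39. The medians of the miR-15/16, miR-17-92, miR-30 and miR-181 families were −0.06, −0.06, −0.05 and −0.01. miRNAs listed for osteoarthritis had 24 of 30 measured, a median of −0.08 and 20 negative, and 0 were called. Their median was 0.005 with a score of the deviations between arrays as a covariate. The Sfmbt2 cluster is a large set of rodent miRNAs from an intron of Sfmbt2 with many near-identical copies. The list used here holds this cluster and relatives, so it is not the intron alone, and 26 of its 47 members were measured. Of these 22 had a higher mean in DMM, with a median difference of 0.15, 0 called, and 0 at an unadjusted p under 0.05. The log2 of the list's summed signal was 14.2 and 13.9 in DMM mice 21 and 25 and 14.5 in sham mouse 22, against 12.7 to 13.4 in the other 5 mice. These 3 mice also stood apart over all miRNAs, and the part of this in the list's difference was not tested. With a score of the deviations between arrays as a covariate the median was 0.08. Probes of near-identical copies may share signal, so its members are not independent.

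The main variation among the 8 arrays did not follow the operation. Their first principal component held 60.8% of the variance. Its scores were −5.48, −5.84, 7.81 and 6.30 in DMM mice 5, 6, 21 and 25, and −7.86, −0.73, 9.21 and −3.42 in sham mice 10, 12, 22 and 26. Mice 21, 25 and 22 had high scores, and mouse 26, also of the higher numbers, had a negative one. The component was computed from these arrays, so its match with single miRNAs describes them and has no test.

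Over the 8 arrays, 54 miRNAs had a Pearson correlation above 0.9 with the component and 46 had one below −0.9. Of the 145 miRNAs numbered 6000 and above, 22 were in the first group and 0 in the second. As a covariate, limma was given another score, of all 16 bone arrays on the first component of their deviations from group means, called the deviation score here. With it limma called 0 miRNAs, 4 passed an unadjusted p under 0.05, and the smallest adjusted p was 0.999. That score was computed from the same arrays and takes up their within-group spread by construction, so its narrower intervals are no measure of precision.

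The 8 miRNAs of largest within-group SD were miR-5622-3p, miR-494-3p, miR-7005-5p, miR-8117, miR-5128, miR-6378, miR-6973a-5p and miR-7040-5p. miR-5622-3p had the largest, 1.77, and read 8.82, 8.38, 11.6 and 11.1 in DMM and 7.53, 9.43, 12.0 and 8.42 in sham. Mice 21, 25 and 22 were the 3 highest. The difference between operations was 0.65 ± 1.07 (SE), with an interval from −1.62 to 2.91. miR-494-3p, from the Dlk1-Dio3 cluster of an imprinted region, read 9.90, 10.8, 13.1 and 12.8 in DMM and 9.83, 12.4, 13.0 and 9.77 in sham. Its difference was 0.39 ± 0.84 (SE), −0.77 within the lower mouse numbers and 1.54 within the higher.

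miR-7005-5p read 7.28, 7.34, 9.18 and 9.39 in DMM and 6.42, 8.06, 9.83 and 7.0 in sham, with mice 21, 25 and 22 again the highest. miR-6973a-5p was unlike the other 7, with sham mouse 10 at 8.02 and the other 7 mice from 4.87 to 6.15. miRNAs at the other end of the component varied by less. miR-486a-3p, of red blood cells, read 6.03, 6.06, 5.05 and 5.37 in DMM and 6.09, 5.40, 5.11 and 5.82 in sham, with its lowest values in mice 21, 22 and 25. The same mice were lowest in miR-218-5p (5.61, 5.73 and 5.79) and in miR-342-3p (8.65, 8.77 and 8.80).

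**Figure D4:**
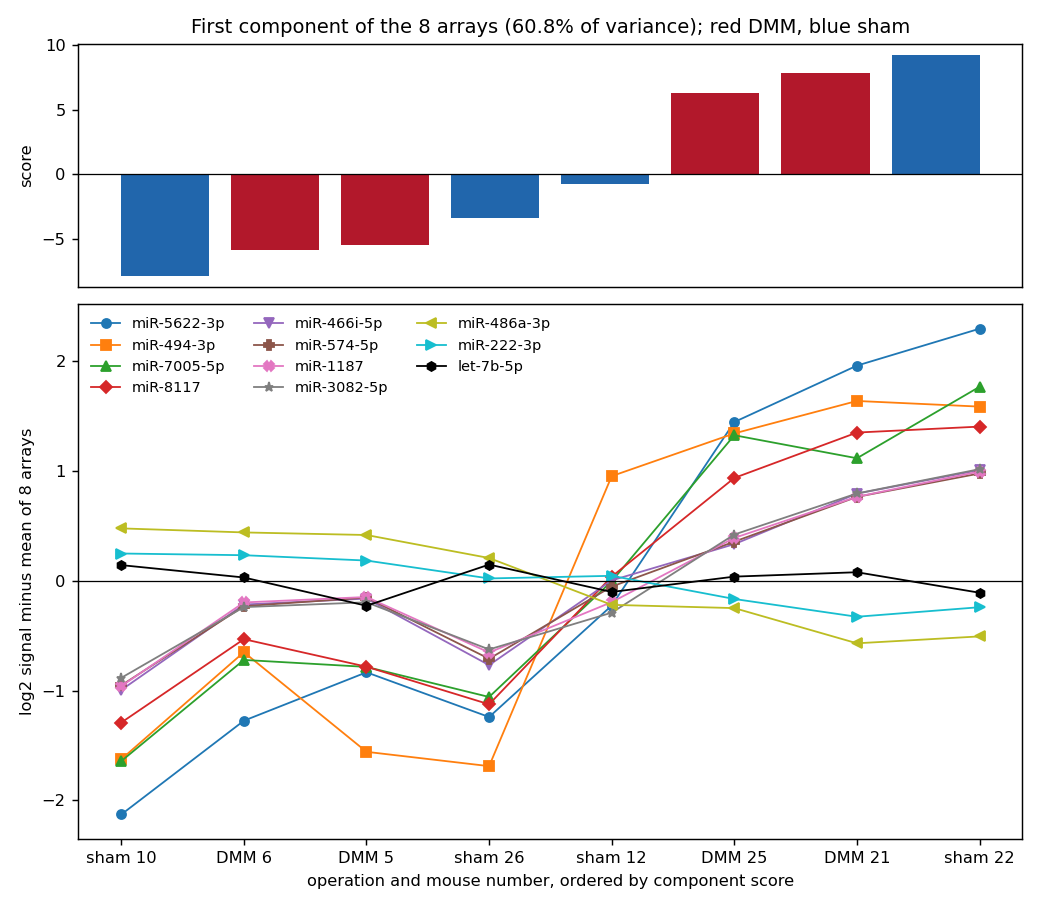
Upper panel, score of each of the 8 arrays on the first component, with DMM in red and sham in blue. Lower panel, log2 signal of 11 miRNAs minus their mean over the 8 arrays, with the arrays in order of score. miR-5622-3p spans from 7.53 in sham mouse 10 to 12.0 in sham mouse 22, and both operations lie at each end.

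A short repeat, UGUGUG, recurs in several miRNAs that followed the component. It was looked for in the mature sequences, read 5′ to 3′ with overlapping matches marked together, and it was picked after the component was seen. RefSeq gave a sequence for 399 of the 490 miRNAs (81.4%), and 18 of the 399 (4.51%) hold the repeat. The 6 below, with the repeat in capitals, show how densely it can occur.
miR-574-5p: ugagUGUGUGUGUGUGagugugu
miR-1187: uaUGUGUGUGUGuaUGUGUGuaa
miR-3082-5p: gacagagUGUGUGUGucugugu
miR-669n: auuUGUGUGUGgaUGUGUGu
miR-466j: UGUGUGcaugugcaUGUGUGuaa
miR-672-5p: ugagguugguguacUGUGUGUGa
miR-574-5p lies on the plus strand at chr5:64970328-64970350, within the spans of Fam114a1 and Tlr6. miR-1187 lies on the minus strand at chr5:82798964-82798986, within no other gene's span. miR-3082-5p lies on the minus strand at chr17:25831406-25831427, within the spans of Jmjd8 and Stub1.

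Of the 18 miRNAs with the repeat, 12 had a correlation above 0.9 with the component, against 35 of all 399 with a sequence. Their median within-group SD was 0.492, against 0.308. RefSeq gave a sequence for 35 of the 54 miRNAs with a correlation above 0.9 (64.8%), against 81.4% of all 490, so the sets are unequally covered. Probes of near-alike sequences may share signal, so the 18 may not be independent. The difference between operations was positive for 16 of 18, against 193 of the 399, with medians of 0.14 and −0.0051. The smallest unadjusted limma p among the 18 was 0.179. A positive correlation with the component was also found for 16 of the 18, against 199 of the 399. The part of the component in these differences was not tested. miR-1187 read 10.7, 10.7, 11.7 and 11.3 in DMM and 9.93, 10.7, 11.9 and 10.2 in sham. The highest value was in sham mouse 22 and the lowest in sham mouse 10, and the difference was 0.41 ± 0.43 (SE).

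miR-574-5p read 11.4, 11.3, 12.3 and 11.9 in DMM and 10.6, 11.5, 12.5 and 10.9 in sham, a difference of 0.37 ± 0.42 (SE). Its order of mice was close to that of miR-1187, with sham mouse 22 highest and sham mouse 10 lowest. miR-3082-5p gave 0.39, miR-669n 0.31, miR-672-5p 0.19 and miR-466j 0.15. let-7b-5p, which holds the repeat once, was a member that did not vary in this way, with an SD of 0.14 and a difference of −0.04.

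The values 1 week after surgery, from other mice, are set beside those at 6 weeks. limma called 0 of 490 miRNAs at 1 week (0%), with 3 at an unadjusted p under 0.05 (0.612%). The DMM effect at 6 weeks minus that at 1 week was called for 0 (0%), with 1 at an unadjusted p under 0.05 (0.204%), miR-1971. miR-1971 had a difference of 0.52 at 6 weeks and −0.28 at 1 week, and these differed by 0.80 with a limma p of 0.0137 and an adjusted p of 0.9998. miR-652-3p, from the other arm of the hairpin that gives miR-652-5p, had −0.04 at 6 weeks and −0.42 at 1 week. miR-106a-3p had 1.02 at 6 weeks and 0.98 at 1 week, and leukocyte miRNAs had medians of −0.08 and −0.36.

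Cartilage from the same operations at 6 weeks was measured in 3 pools of 3 mice a group, and per the labels the same mice gave both tissues, so the tissues are not independent. There limma called 42 miRNAs higher (9.59% of 438) and 32 lower (7.31%). The number of calls rests on single pools: 20 without DMM pool 2 and 166 without sham pool 1. Of the miRNAs measured in both tissues, 40 were called higher in cartilage, and 36 of these 40 had a higher mean in DMM bone. A higher mean in DMM bone was found for 176 of all 359 shared miRNAs, and for 137 of the 301 not called in cartilage. The median difference in bone of the 40 was 0.16 and 0 were called, against −0.0041 over all 359. Of the 18 called lower in cartilage, 3 had a higher mean in DMM bone, and the median in bone was −0.07.

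The correlations of these sets with the first component of the 8 bone arrays are given beside them. All 40 miRNAs called higher in cartilage had a positive correlation with it and 20 had one above 0.9, and 0 of the 18 called lower had a positive one, against 192 and 44 of the 359. With the deviation score of the 16 arrays as a covariate, which is not that component, the median differences in bone were 0.09 and 0.0062, against 0.01 over the 359. The part of the component in the bone values was not tested. miR-1187 had a difference of 0.41 in bone and 1.42 in cartilage, miR-574-5p 0.37 and 1.30, and miR-5099 −0.29 and 1.47. miR-451a had −0.11 in bone and −1.34 in cartilage, and miR-223-3p −0.05 and −1.19.

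**Figure D5:**
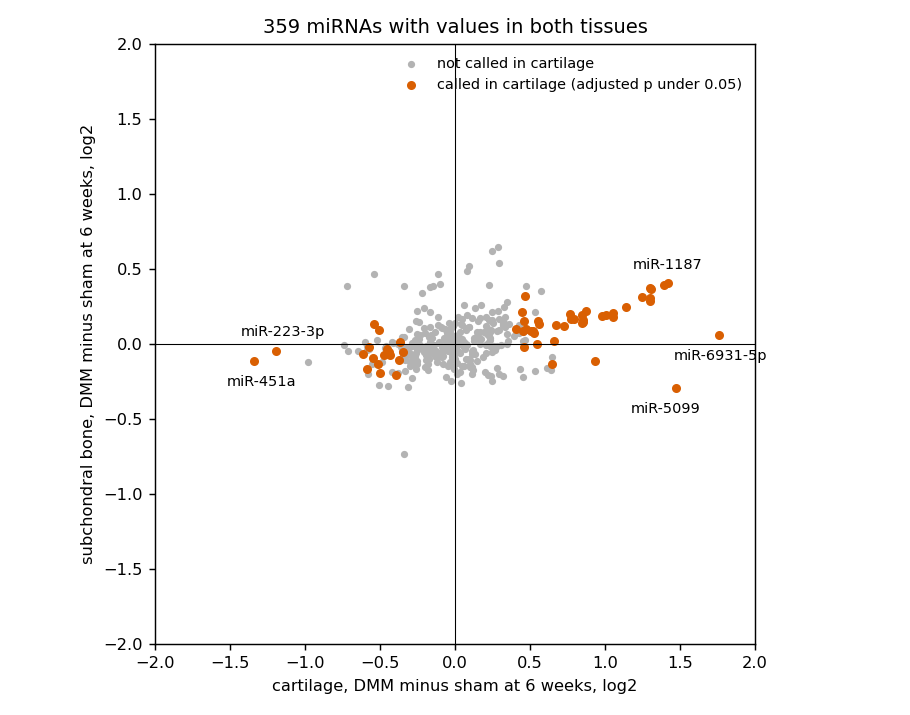
Difference between DMM and sham at 6 weeks in subchondral bone (vertical axis, log2) against that in cartilage (horizontal axis, log2) for the 359 miRNAs with values in both, on equal scales. miRNAs called in cartilage (orange) spread from −1.34 to 1.76 along the cartilage axis and lie between −0.29 and 0.41 in bone.

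The count in bone at 6 weeks was 0 in all alternatives but 1. With array weights estimated over all miRNAs together, an estimate that did not converge, 54 were called, all 54 with a higher value in DMM, and 37 of them had a correlation above 0.9 with the component. These weights ran from 0.232 for DMM mouse 5 and 0.313 for mouse 6 to 2.01 for DMM mouse 21, 2.88 for mouse 25 and 3.39 for sham mouse 26, while sham mouse 22 had 0.302. Array weights from another algorithm, updated miRNA by miRNA but again with a single weight for each array, gave 0 calls. With these, 28 miRNAs had an unadjusted p under 0.05.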

How the data were processed

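Small RNA of laser-microdissected tissue was measured on Agilent mouse miRNA arrays (release 21), of which 8 are subchondral bone at 6 weeks, 8 bone at 1 week and 6 cartilage at 6 weeks. The values are log2 signals as deposited by the authors, taken as log2 from their range of 4.08 to 16.7. Of software, limma 3.20.9 is listed in the submitters' processing notes. The background correction, normalization and row filter were not given in the sources used here. Array medians of bone at 6 weeks ran from 6.17 to 6.34. Scanner background was not used. The number of arrays is among the limits on the precision, and other limits were not tested. Groups were read from titles and tissue from the source field, since another field of the cartilage samples names bone.

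limma 3.58.1 (R 4.3.3) fitted a group-means model with empirical Bayes moderation to all 16 bone arrays, and likewise to the 12 cartilage arrays, each over its own complete rows (490 and 438). P-values were 2-sided and Benjamini-Hochberg adjusted over every miRNA of the fit, with a threshold of 0.05. The fit was run on simulated data with independent noise for each miRNA. The real arrays vary together, so that run does not measure the error of the fit here. Nothing says the mice share litters or batches. The p-values of bone rest on the spread between single mice within groups, shared over both time points, and those of cartilage on the spread between pools. Bone mouse numbers pair no groups. Cartilage pools were not treated as paired in the main fit. The DMM and sham pools of the same number had correlations of deviations of −0.45, −0.48 and −0.04 for pools 1 to 3. So few pools, with deviations that sum to 0 within a group, cannot decide whether pool numbers pair.

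Named miRNAs were the 8 in each direction with the smallest p above the 25th percentile of level, since none passed the threshold, with the 12 highest signals, the 8 largest within-group SDs, the 5 smallest p for the difference between weeks, and members of 28 lists of markers, families and clusters. The members and lists were chosen with earlier results of these data known. Sequences came from the RefSeq table, and figures were drawn with matplotlib. Alternatives were 2 scalings, dropping low rows, another prior, array weights of 2 kinds, the week alone, the mouse-number block, a covariate of each bone array's score on the first component of deviations from group means, and leaving out each array.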

Additional observations from a re-analysis of the deposited data

Results flagged for a closer look

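Among 228 values tested over the 114 named miRNAs (2 groups of 4 for each), 8 (3.51%) had 1 mouse standing apart from the other 3 of its group. Chance alone gives about 1 in 20. DMM mouse 5 gave 3 of the 8, all low: let-7c-5p at 11.5, let-7b-5p at 11.4 and miR-26a-5p at 10.4. DMM mouse 6 gave 2, both high: miR-27a-3p at 8.77 and miR-148a-3p at 8.70. Sham mouse 12 gave 2, both low: miR-6368 at 9.11, where the other 3 sham mice read 9.26 to 9.28, and miR-6366 at 15.1, where they read 16.4 to 16.5. Sham mouse 10 gave miR-652-3p at 8.59, where the other 3 read 8.38 to 8.40.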

How the results depend on the processing

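In subchondral bone at 6 weeks, 0 miRNAs were called under centring on the 75th percentile, quantile normalization or dropping miRNAs below the median level. The same count came from the trend and robust prior, the arrays of that week alone, the mouse-number block and each left-out array. It was also 0 with settings chosen after seeing the data, the deviation score as a covariate and array weights updated miRNA by miRNA. The array weights that did not converge gave 54 at 6 weeks and 38 at 1 week, and 0 for the difference between weeks. The covariate and the mouse-number block left 4 and 2 at an unadjusted p under 0.05. Of 114 named miRNAs, 72 changed sign under some setting, 1 of them among the 16 with the smallest p, and 11 were called, all with array weights only. Of the 28 list medians, 1 changed sign under another scaling and 19 under any setting. In cartilage the main count was 74, and it was 43 with a replicate block on pool numbers and 40 without rows below the median level. It ran from 20 to 166 when a pool was left out: 20 without DMM pool 2, 27 without sham pool 2, 31 without sham pool 3, 44 without DMM pool 1, 92 without DMM pool 3 and 166 without sham pool 1. The causes were not tested. No paired analysis was possible in bone because its mouse numbers differ between groups.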

Other observations

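Some other families gave like values in both operations, and members of them are also among the miRNAs counted or described above. miR-125b-5p, known in cell differentiation, is also on the osteoblast list. It read 9.60, 9.40, 10.2 and 10.1 in DMM and 9.90, 9.35, 9.91 and 10.5 in sham, a difference of −0.08. miR-103-3p had a difference of −0.01, and miR-107-3p, with −0.07 in bone, had −0.62 in cartilage. For the Dlk1-Dio3 cluster, whose miRNAs come from an imprinted region, 4 of the 48 names listed matched a measured miRNA. These 4 had a higher mean in DMM, as did 244 of all 490, with differences from 0.07 to 0.39 and 0 called. Not every measured miRNA of the region is on the list, so the 4 do not give the direction of the cluster. The within-group SDs of the 490 miRNAs in bone at 6 weeks and at 1 week had a Spearman correlation of 0.464 across miRNAs, which share probes and arrays of the same design.

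Of the 145 miRNAs numbered 6000 and above, 86 had a higher mean in DMM bone at 6 weeks, with a median difference of 0.04 and 0 called. The differences within the lower and the higher mouse numbers had a Spearman correlation of −0.31 across the 490 miRNAs, which share the arrays.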
